A study of Mus musculus with 4 samples.

Results

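The data describe DNA methylation at the genes of 2 families of transcription factors, the Sox and the T-box factors, in the liver of adult male mice. The members are 31 genes, 17 Sox and 14 T-box genes, chosen by gene family name. They were measured at 4229 cytosines, out of 1276684 cytosines of CpG dinucleotides that had at least 10 reads in each of the 4 mice; 2221 lay at Sox genes and 2008 at T-box genes. A cytosine was counted for a gene if it lay between the ends of its curated RefSeq transcripts or within 3 kb outside them.

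Enhanced reduced representation bisulfite sequencing (ERRBS) was used, in which genomic DNA is cut by MspI at CCGG, fragments of 70 to 320 bp are kept (so the labels, while the published description of the method also names TaqαI), and unmethylated cytosines are converted and read as T. The mice were 6 to 8 weeks old males on a normal diet, the labels name no treatment or transgene, and liver was used. The group called Mixed held 2 mice whose background is undefined and includes C57BL/6J and other strains, and the group called B6 held 2 C57BL/6 mice. The groups came from different institutions, so an effect of strain and one of housing cannot be told apart. Where 4 values follow each other below, the first and second Mixed mouse come before the first and second B6 mouse. Whole liver is a mixture of hepatocytes, bile duct, endothelial and blood cells, and ERRBS does not separate 5-methylcytosine from 5-hydroxymethylcytosine. The 6 hepatocyte marker genes that were looked up (albumin among them) had no cytosine measured in all mice at their starts, so the cell makeup could not be checked there; at bile duct markers the start-region mean was 27.7% for Krt7 (18 cytosines), 3.81% for Krt19 (10 cytosines) and 2.70% for Epcam (14 cytosines).

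Sox factors bind DNA through a high mobility group box and T-box factors through the T-box domain. Both families direct the choice of cell fate in the embryo, among them the formation of the nervous system, cartilage, heart, limbs and blood vessels. Most members are silent in the adult hepatocyte, and a few are known from cells of the liver. Sox9 and Sox4 act in bile duct cells and their precursors, and Tbx3 in the hepatoblasts of the embryonic liver. Sox7, Sox17 and Sox18 act in the lining of blood vessels. This list is not complete, and whether these genes are active in adult hepatocytes was not looked at. Genes that direct cell fate in the embryo often lie in CpG-rich DNA that is held by Polycomb complexes and lacks methylation over long stretches.

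A few stretches of the reference genome (mm10, GRCm38, plus strand, RefSeq) show what was measured, and the results below refer back to them. They are the 300 bp before the start of Tbx3 and the stretch of its coding exon with intermediate methylation, the 300 bp before the starts of Sox30 and Sox15, which carry intermediate methylation, and stretches inside Sox9 and Tbx5. Capitals mark the CpGs measured in all 4 mice on at least 1 strand.
Tbx3 start, chr5:119670562-119670861: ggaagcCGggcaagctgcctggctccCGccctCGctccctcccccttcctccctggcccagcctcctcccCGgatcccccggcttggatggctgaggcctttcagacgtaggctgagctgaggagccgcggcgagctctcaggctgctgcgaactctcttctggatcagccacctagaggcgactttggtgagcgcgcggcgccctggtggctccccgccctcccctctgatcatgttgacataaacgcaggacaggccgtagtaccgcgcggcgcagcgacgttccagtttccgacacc
Tbx3 coding exon, chr5:119680562-119680861: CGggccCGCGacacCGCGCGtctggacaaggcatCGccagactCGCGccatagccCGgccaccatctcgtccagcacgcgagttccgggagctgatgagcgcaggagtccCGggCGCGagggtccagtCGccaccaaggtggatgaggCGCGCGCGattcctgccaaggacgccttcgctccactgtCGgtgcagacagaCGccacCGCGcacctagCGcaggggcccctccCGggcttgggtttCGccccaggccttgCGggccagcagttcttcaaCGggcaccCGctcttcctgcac
Sox30 start, chr11:45980010-45980309: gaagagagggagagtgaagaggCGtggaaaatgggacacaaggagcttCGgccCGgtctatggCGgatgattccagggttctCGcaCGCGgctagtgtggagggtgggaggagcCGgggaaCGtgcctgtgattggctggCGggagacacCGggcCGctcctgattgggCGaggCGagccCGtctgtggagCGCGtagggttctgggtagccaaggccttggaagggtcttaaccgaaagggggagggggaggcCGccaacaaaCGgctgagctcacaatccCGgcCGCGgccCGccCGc
Sox15 start, chr11:69654737-69655036: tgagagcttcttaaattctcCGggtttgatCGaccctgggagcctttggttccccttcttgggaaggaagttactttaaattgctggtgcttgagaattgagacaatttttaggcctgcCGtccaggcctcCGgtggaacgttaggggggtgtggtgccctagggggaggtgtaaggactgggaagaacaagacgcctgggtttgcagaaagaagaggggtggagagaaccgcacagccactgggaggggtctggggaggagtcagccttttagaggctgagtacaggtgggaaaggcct
Sox9 coding exon, chr11:112785348-112785433: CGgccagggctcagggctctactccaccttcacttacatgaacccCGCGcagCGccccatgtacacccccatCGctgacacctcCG
Tbx5 intron, chr5:119866678-119866910: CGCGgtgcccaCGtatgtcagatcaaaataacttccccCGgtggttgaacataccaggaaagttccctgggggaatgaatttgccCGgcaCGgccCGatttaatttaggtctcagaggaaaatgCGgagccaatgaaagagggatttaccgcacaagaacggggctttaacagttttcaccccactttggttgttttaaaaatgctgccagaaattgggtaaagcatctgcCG
Of the 25 CpGs in the Tbx3 start window, 4 were measured, with a mean of 0.132% ± 0.265 (SD, n = 4 mice). In the Tbx3 coding window 28 of 35 CpGs were measured, with a mean of 54.1% ± 5.95. Both windows are rich in CpGs, and the coding one, which was picked for its intermediate level, was higher in every mouse. The Sox30 window held 24 measured CpGs of 25 at 34.3% ± 2.77, the Sox15 window 4 of 7 at 43.0% ± 6.67, the Sox9 stretch 6 of 6 at 49.4% ± 2.58 and the Tbx5 stretch 9 of 11 at 33.5% ± 9.11.

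The first comparison asked how methylation at these genes varied between promoter, body and flank, and between the families. The promoter was taken as 1000 bp on each side of any curated transcription start, the body as the rest of the gene, and the flank as the remaining part of the 3 kb outside it. Methylation level is the percent of reads that kept a C, and values below are the mean over cytosines in each mouse, given as mean ± SD over the 4 mice. Promoters of both families were nearly unmethylated, with 3.38% ± 0.0940 at 1248 Sox cytosines and 3.57% ± 0.120 at 692 T-box cytosines. The 2 families changed order with the definition of the promoter: with the 1000 bp upstream alone the T-box mean was 1.81 points below the Sox mean. Bodies carried 27.0% ± 0.263 at 831 Sox cytosines and 13.5% ± 0.503 at 902 T-box cytosines. Flanks carried 29.1% ± 0.704 at 142 Sox cytosines and 7.30% ± 0.359 at 414 T-box cytosines. Over the genes of the whole genome, cytosines of promoters averaged 2.75%, those of bodies 58.2% and those of flanks 21.1%.

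The T-box body mean lay 13.5 points below the Sox mean, a gap many times the SD of 0.407 between mice, but it depended on the promoter definition and on 3 genes. It was -4.51 points with the promoter as the 1000 bp upstream only and -21.0 points with 2000 bp on each side. Without the 3 SoxD genes Sox5, Sox6 and Sox13, which hold 329 of the 831 Sox body cytosines, the Sox body mean was 11.1% ± 0.236 and the gap turned to 2.37 points in the other direction. Likewise, without Sox10 the Sox flank mean was 22.0% ± 0.700. The spread between mice says nothing about the spread between genes, and family values are a description of these genes with no test over them.

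Counted by gene, member bodies were more often low than those of other genes, and promoters were low in nearly all genes; these counts are a description. Among members with at least 5 cytosines in the region, 27 of 28 promoters were hypomethylated (under 20%), against 91.2% of 14912 promoters over all RefSeq genes. Within this low range the median promoter level was higher in members, 2.42% against 0.315% over all genes. Bodies were hypomethylated in 16 of 27 members (59.3%), against 10.7% of 11186 genes, and the median body level was 11.5% against 78.3%. For T-box genes 8 of 11 bodies were hypomethylated (median 11.3%) and for Sox genes 8 of 16 (median 23.3%). Flanks were hypomethylated in 13 of 17 members and in 48.6% of 5379 genes, with medians of 6.10% and 23.5%. Among other lists, the Pax family, also developmental regulators, had a median body level of 18.1% (8 genes), the Gata factors 51.3% (5 genes), high mobility group box genes outside the Sox family 64.9% (14 genes), and partners of both families in heart and trunk development 26.4% (11 genes).

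**Figure D1:**
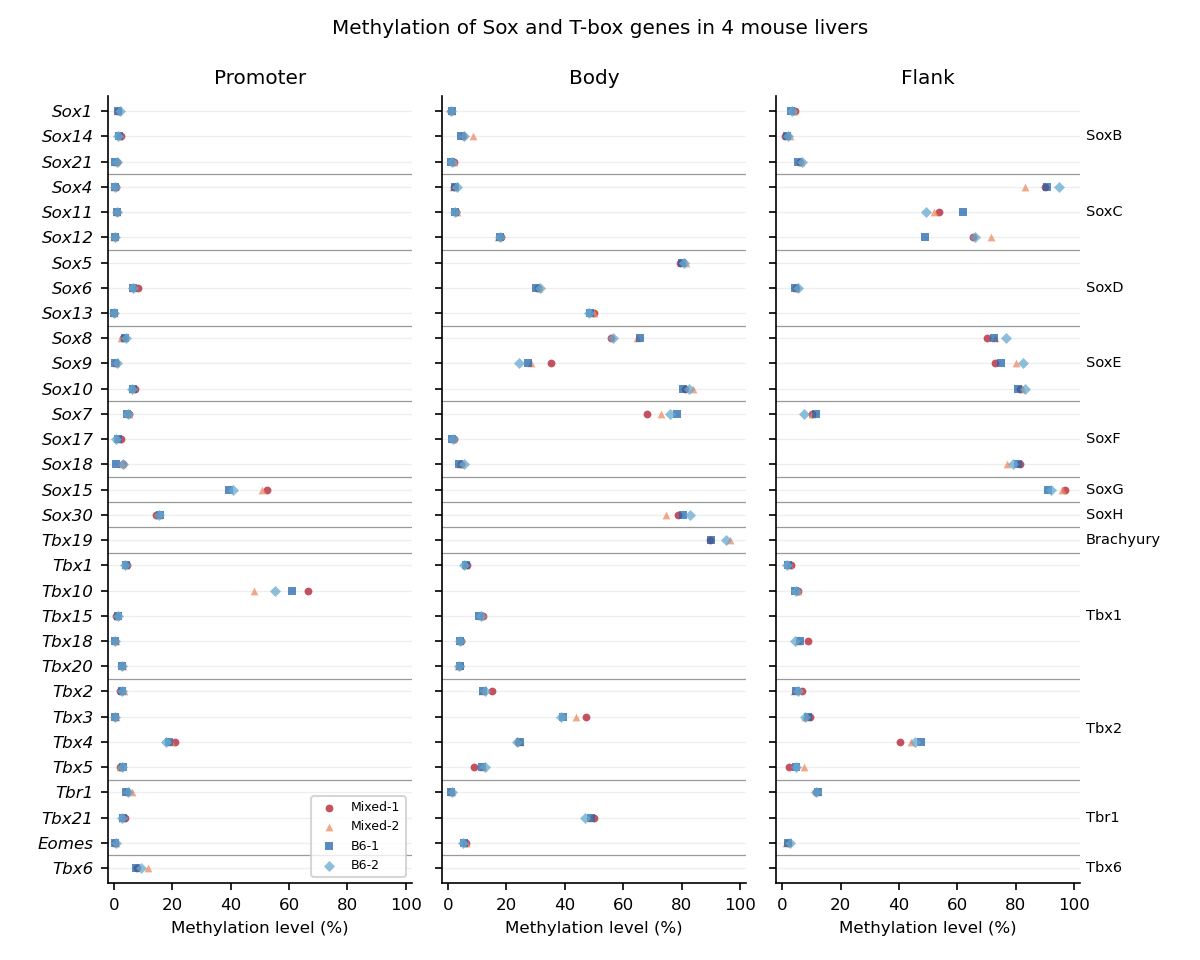
Mean methylation level (percent of reads) at the promoter, body and flank of each of the 31 genes, grouped by subfamily (right), with 1 point for each mouse; a gene without a common cytosine in a region has no point. Promoters sit near 0 except those of Sox15, Tbx10, Tbx4 and Sox30, while bodies run from 1.21% to 92.8%.

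Distance from the nearest start of the gene was compared next, first for cytosines inside the genes alone. Between 1 and 3 kb from the start the mean was 7.04% ± 0.520 for Sox (300 cytosines), 7.21% ± 0.160 for T-box (234 cytosines) and 22.9% ± 0.206 for all other genes. Between 3 and 5 kb it was 16.1% ± 0.582 (152 cytosines), 6.42% ± 0.485 (280 cytosines) and 49.5% ± 0.311. Beyond 5 kb it was 58.3% ± 0.628 for Sox (251 cytosines of 6 genes), 23.8% ± 0.964 for T-box (364 cytosines of 11 genes) and 67.7% ± 0.314 for other genes. Both family means were thus below that of other genes in each of these zones, and beyond 5 kb the T-box mean was the lower of them. Downstream of the gene, beyond 5 kb, T-box flanks had 6.92% ± 0.209 (304 cytosines) and those of other genes 22.4% ± 0.159. Of these T-box cytosines, 61 were in the Tbx10 flank within 1000 bp of the start of Nudt8, and 49 in the Tbx3 flank inside the antisense RNA Tbx3os2. The plot by distance holds cytosines inside and outside the genes, and the Sox bin that starts at 3000 bp reached 39.6% in it. The high Sox point between 2 and 1.5 kb upstream came from 17 cytosines of Sox10 with 81.8%, against 7.29% at the 12 cytosines of Sox6 in the same bin.

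**Figure D2:**
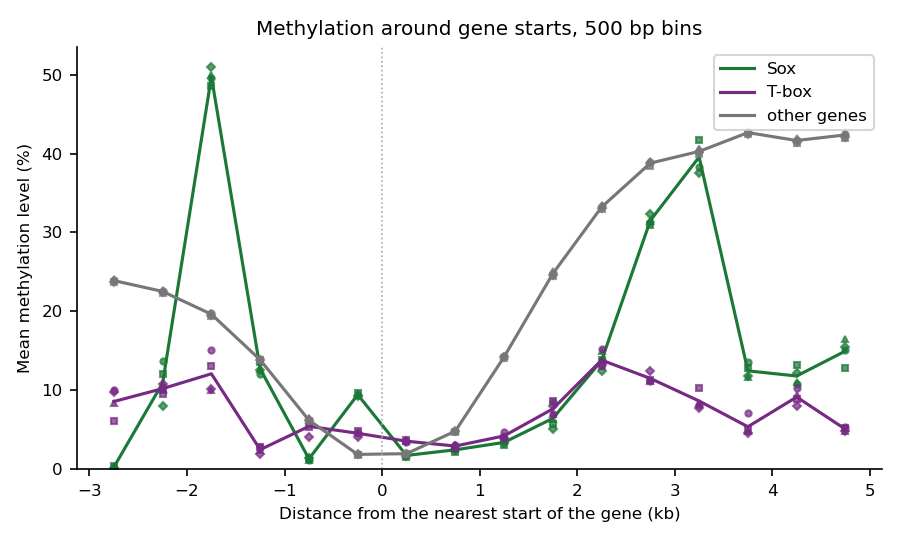
Mean methylation level in bins of 500 bp by distance (kb) from the nearest curated start of the gene, for Sox genes, T-box genes and all other RefSeq genes, downstream flanks of short genes included; lines are means of the 4 mice and points the single mice. Up to 5 kb downstream of the start the T-box line reaches at most 13.8%, while other genes are above 40% from 3 kb on; several Sox bins hold few genes.

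Methylation also varied with CpG density, which was compared within classes of the number of CpGs within 100 bp on each side of a cytosine. Among body cytosines with 6 to 10 CpGs, the mean was 17.7% ± 0.427 for T-box (183 cytosines), 50.9% ± 0.560 for Sox (188 cytosines) and 72.3% ± 0.303 for other genes. With 11 to 15 CpGs it was 10.5% ± 1.09, 23.8% ± 0.499 and 49.3% ± 0.130. With up to 5 CpGs the T-box mean was 45.5% ± 0.648, and the Sox mean of 75.7% ± 1.05 was within 1 SD of the 75.8% of other genes. Above 20 CpGs the order differed, with 6.83% ± 1.02 for T-box, 1.24% ± 0.106 for Sox and 6.86% ± 0.139 for other genes. T-box bodies were thus lower than other genes at matched density in every class but the densest, where they lay within 1 SD of them. Without Tbx3, a gene left out after its values were seen, the densest class had 2.61% ± 0.511 (322 cytosines) in T-box genes, below other genes as well.

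**Figure D3:**
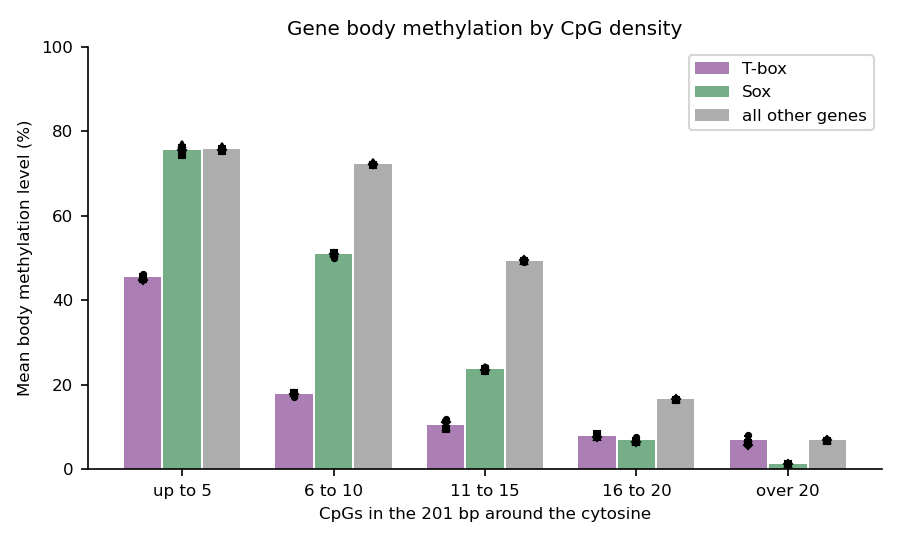
Mean body methylation level (percent) by the number of CpGs within 100 bp on each side of the cytosine, for T-box, Sox and all other genes; bars are means of the 4 mice and points the single mice. T-box bars are the lowest of the 3 up to 15 CpGs, and from 16 CpGs on the Sox bars are, down to 1.24%.

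For each gene the longest stretch in which every measured cytosine was hypomethylated was taken, with gaps of up to 2000 bp. It had to reach within 1000 bp of any curated start but need not hold the start, as in Tbx6 and Tbx4. Its median length was 2216 bp in 27 members and 660 bp over 14723 genes. Tbx3 had the longest, with 4365 bp and 81 cytosines, followed by Sox11 (4293 bp, 195 cytosines) and Tbx2 (4287 bp, 135 cytosines). The shortest were 89 bp in Tbx6 and 143 bp in Tbx4. No member passed 5 kb, which 0.720% of all genes did. The length depends on where the captured fragments fall, since no site between measured cytosines was seen.

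Levels of single genes also depend on where the promoter ends. With the promoter as the 1000 bp upstream only, so that the start of the gene counts as body, body means were 29.2% in Sox10, 22.9% in Sox13, 18.3% in Sox7, 12.1% in Sox9 and 10.1% in Sox30, against 82.1%, 49.2%, 73.9%, 28.9% and 79.1% as reported below. With 2000 bp on each side, promoter means were 5.75% in Sox4 and 5.19% in Sox9, against 0.400% and 0.680%, and the Sox9 body had 49.4%.

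Among the Sox genes, the SoxB genes Sox1, Sox14 and Sox21, regulators of neural cells, were nearly unmethylated, with a body mean of 1.77% ± 0.273 at 176 cytosines. The Sox1 body (chr8:12395519-12399555) had 1.18% and 1.27% in the Mixed mice and 1.46% and 1.12% in the B6 mice. In its flank the values were 4.58% and 4.14% against 3.18% and 3.30%. The Sox21 body had 2.11% and 1.91% in the Mixed mice and 1.19% and 1.46% in the B6 mice. The Sox14 flank had 0.948% and 2.88% against 1.80% and 2.17%. Mixed minus B6, the means differed by 0.683 points in the Sox21 body and 1.12 points in the Sox1 flank (adjusted p = 0.707 and 0.682 in the limma fit described below). In the Sox14 flank and the Sox1 body the differences were -0.0777 and -0.0636 points. A noncoding RNA, Sox1ot, overlaps all measured Sox1 cytosines, and the start of Gm4675 lies within 1000 bp of 39 body and 96 promoter cytosines of Sox21, so these values belong to those transcripts as well.

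The SoxC genes Sox4, Sox11 and Sox12, which act in progenitor cells, had a body mean of 7.29% ± 0.201, and Sox11 alone 2.65%. Sox4 (chr13:28948919-28953699) had a promoter level of 0.592% and 0.202% in the Mixed mice and 0.420% and 0.388% in the B6 mice over 64 cytosines. Its body had 2.03% and 1.79% against 2.49% and 3.03%, a difference of -0.845 points (limma adjusted p = 0.743). Its flank, with 5 cytosines, stood at 90.0%, 83.3%, 90.8% and 94.8%. Sox4 thus went from nearly no methylation to nearly full methylation between the gene and its flank. The Sox12 promoter had the most measured cytosines, 217, all hypomethylated with a mean of 0.261%, and its flank (10 cytosines) stood at 65.4%, 71.4%, 49.0% and 65.96%.

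The SoxD genes are long genes that act in cartilage and other tissues, and their body mean was 51.3% ± 0.542 at 329 cytosines. This was close to the body mean of the SoxE genes given below, and which of them was higher differed between mice. Sox5 (chr6:143828425-144209568) had 105 body cytosines at 79.6%, 81.6%, 79.98% and 80.9%, and no promoter cytosine was common to the mice. The 1000 bp on each side of its upstream start hold 3 MspI sites (CCGG), against 35 at Tbx2, the highest count of the member starts. Tbx10 had 2 such sites and still 3 measured promoter cytosines. Why Sox5 had none was not tested. The Sox13 body (83 cytosines) had 49.9%, 50.0%, 48.5% and 48.2%, with 32 hypomethylated, 28 hypermethylated (over 80%) and 23 intermediate cytosines. Within Sox13 the level was 0.172% at the promoter, 5.18% from 1262 to 1454 bp inside the start and 53.8% from 5795 bp on. Sox6 had a body mean of 30.9%, split between 90 hypomethylated and 35 hypermethylated of 141 cytosines, and 19 of the former lay at the start of the antisense RNA Sox6os.

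The SoxE genes Sox8, Sox9 and Sox10, regulators of the neural crest, glia and sex determination, had unmethylated promoters and methylated bodies, with 2.56% ± 0.155 and 50.3% ± 2.31. The Sox10 body (chr15:79154913-79164490, 12 cytosines) had 81.2%, 84.0%, 80.6% and 82.5%. Its flank (17 cytosines) had 81.5%, 82.0%, 80.6% and 83.2%, and all of these lay within 1000 bp of the start of Gm10863. The Sox8 body (21 cytosines) had 56.0%, 64.6%, 65.7% and 56.5%, and with at least 20 reads in every mouse its mean fell to 36.4%. Between the strains, the limma adjusted p was 0.935 for the Sox10 body, 0.993 for the Sox10 flank and 0.991 for the Sox8 body.

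Sox9, which marks bile duct cells in the adult liver, was unmethylated at the start and intermediate from its second exon on. Its promoter (69 cytosines) had 0.583%, 0.754%, 0.462% and 0.923%. Its body (28 cytosines) had 35.3% and 28.5% in the Mixed mice against 27.4% and 24.5% in the B6 mice. The difference of the means was 5.96 points (SE 3.15, limma adjusted p = 0.843). Of the 28 cytosines 16 were intermediate, 12 hypomethylated and none hypermethylated. From 1222 to 1315 bp inside the start the mean was 1.80%, from 1652 to 1816 bp 28.8%, and in the coding part of exon 3 printed above, 3138 to 3223 bp in, 49.4%. In that last stretch the mice had 50.5%, 49.9%, 51.6% and 45.7%, with single cytosines between 36.7% and 58.1%. It was found as a run of cytosines that each averaged 20 to 80%, so its intermediate range follows from that rule. The 2 cytosines of the flank averaged 77.6%.

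The SoxF genes Sox7, Sox17 and Sox18 act in endothelial cells. Sox17 (chr1:4490928-4497354) was unmethylated over its 154 body cytosines, with 2.05%, 1.68%, 1.53% and 1.69%, and at its promoter with 2.28%, 1.57%, 1.34% and 0.735%. Sox18 had 3.02%, 2.80%, 0.793% and 2.97% at the promoter (26 cytosines) and 4.47%, 4.20%, 3.75% and 5.36% in the body (18 cytosines). Sox7 had 5.12%, 5.26%, 4.65% and 4.78% at its promoter (104 cytosines), while its 8 body cytosines had 68.0% and 73.1% in the Mixed mice and 78.3% and 76.0% in the B6 mice. The Sox7 body was thus the exception among the 3 bodies. In the Sox7 body Mixed minus B6 was -6.61 points (limma adjusted p = 0.772). Flanks had 10.3%, 10.3%, 11.6% and 7.66% in Sox7 (18 cytosines) and 81.6%, 77.1%, 80.8% and 79.1% in Sox18 (3 cytosines).

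Sox15 and Sox30 are known from muscle progenitors and trophoblast and from spermatogenesis. They had the highest promoter means, 45.9% and 15.3%, of the 16 Sox genes with at least 5 promoter cytosines. Sox6, with a promoter mean of 6.98%, also held methylated cytosines near its 6 curated starts. It had 85.3% at the 3 cytosines of 1 start and 33.9% at the 4 cytosines within 500 bp upstream of a start. Sox15 (chr11:69655037-69656727) had 52.4% and 50.8% in the Mixed mice and 39.4% and 40.8% in the B6 mice at 6 promoter cytosines. All 6 lay upstream, at -322 to -168 bp from the start, all were intermediate, and 5 of them lie in the window printed above; their median coverage was 27 reads. The 91 cytosines of Sox30 (chr11:45980310-46017992) from the start to 1000 bp inside averaged 3.23% ± 0.676, and the 42 cytosines before the start 41.3% ± 2.34. Upstream of Sox30 the level fell towards the start, though not evenly. The 4 cytosines at -469 to -419 bp had 92.9%, the 5 at -351 to -301 bp 45.9%, the 12 at -278 to -211 bp 60.7%, the 13 at -186 to -107 bp 30.6% and the 8 at -45 to -3 bp 0.904%. The 13 cytosines had 25.8%, 32.2%, 36.6% and 28.0%, an intermediate level in every mouse. The 9 body cytosines of Sox30 averaged 79.1%. These Sox30 values, the Sox9 stretch above, and the stretches described at Tbx3, Tbx4, Tbx5 and Tbx21 below, were picked after the values were seen.

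Among T-box genes, those of the Tbx1 subfamily (Tbx1, Tbx10, Tbx15, Tbx18 and Tbx20), which pattern the pharynx, heart, skeleton and ureter, had a body mean of 5.99% ± 0.316 at 323 cytosines, with 11.5% in Tbx15, 6.16% in Tbx1, 4.29% in Tbx18 and 3.93% in Tbx20. Tbx1 had the most cytosines of all members, 399, and its flank (35 cytosines) had 2.92%, 2.38%, 2.04% and 1.52%. Tbx10 was the exception at the start, with 66.6%, 48.1%, 61.2% and 55.0% at only 3 promoter cytosines, while its 61 flank cytosines averaged 5.07% and all lay within 1000 bp of the start of the neighbouring gene Nudt8. Tbx19, a regulator of pituitary corticotroph cells, had only 4 cytosines, all in the body, with 89.7%, 96.4%, 90.0% and 95.1%, and Tbx6, which acts in the somites, had 16 promoter cytosines with a mean of 9.13%.

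The Tbr1 subfamily holds Tbr1 and Eomes, which act in the developing cortex, and Tbx21 (T-bet), which with Eomes directs T and natural killer cells. The Tbr1 body (chr2:61804453-61814114, 115 cytosines) had the lowest mean of all bodies with at least 10 cytosines, at 1.05%, 1.40%, 1.02% and 1.37%. The Sox1 body was close to it, and which of them was lower differed between mice. With at least 20 reads in every mouse the order turned, with 1.40% in Tbr1 and 1.26% in Sox1. Eomes had a body mean of 5.74% at 45 cytosines. In the Tbr1 flank (57 cytosines) the values were 11.7%, 12.01%, 12.3% and 11.7%, and in the Eomes flank (54 cytosines) 1.96%, 1.44%, 1.92% and 2.56%. Tbx21 differed from both, with a promoter mean of 3.14% and a body mean of 48.7% at 28 cytosines, 15 of them intermediate.

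The Tbx2 subfamily (Tbx2, Tbx3, Tbx4 and Tbx5) acts in limb and heart, and its body mean of 20.96% ± 0.828 at 387 cytosines was the highest of the T-box subfamilies with over 10 cytosines. The Tbx4 promoter (35 cytosines) had 20.96%, 19.7%, 19.0% and 18.0%, and the 7 cytosines at -511 to -316 bp averaged 40.2%. Its flank (14 cytosines) had 40.3%, 44.1%, 47.6% and 45.6%. In Tbx5, 14 cytosines of the intron stretch printed above had 20.3%, 36.2%, 36.5% and 41.1%, so the first Mixed mouse stood below the other 3 mice, whereas the 52 cytosines from 2720 to 5453 bp inside the start averaged 4.33%. Tbx2 had a body mean of 12.7%, with 117 of 134 cytosines hypomethylated and none hypermethylated.

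Tbx3 (chr5:119670862-119684724) had the largest number of intermediate body cytosines of all members, 59 of 73, a share like that of Sox8, where 17 of 21 were intermediate. The promoter (69 cytosines) had 0.463%, 0.850%, 0.511% and 0.352%, and the flank (62 cytosines) 9.63%, 7.83%, 8.78% and 7.69%. The body had 47.3% and 43.7% in the Mixed mice and 39.4% and 38.9% in the B6 mice, a difference of 6.42 points (limma adjusted p = 0.772). Going into the gene, the level rose from 0.843% in the first 1000 bp to 7.45% between 1 and 3 kb and 24.4% between 3 and 5 kb. It reached 53.8% ± 5.40 at 52 cytosines of 40 CpGs at chr5:119680562-119681100, of which 50 lay in the coding part of exon 7 of 8 and 2 in an intron. In these 52 the mice had 60.7%, 55.4%, 49.1% and 49.9%, and each cytosine averaged between 28.8% and 73.3%. The stretch was found as a run of cytosines that each averaged 20 to 80%, so by that rule none could be hypo- or hypermethylated. Downstream of the gene the 50 flank cytosines averaged 5.91%. Some of this exon was CpG-dense: all 29 Tbx3 body cytosines with over 20 CpGs in that window were intermediate, against 2 of the 322 in the other T-box genes, 0 of 222 in Sox genes and 6.51% of 42125 in all other genes. The 29 belong to 1 gene, and its exon was picked for its intermediate level. The contrast is thus a description of this gene and was not tested. The antisense RNAs Tbx3os1 and Tbx3os2 overlap the promoter and flank but not this exon.

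**Figure D4:**
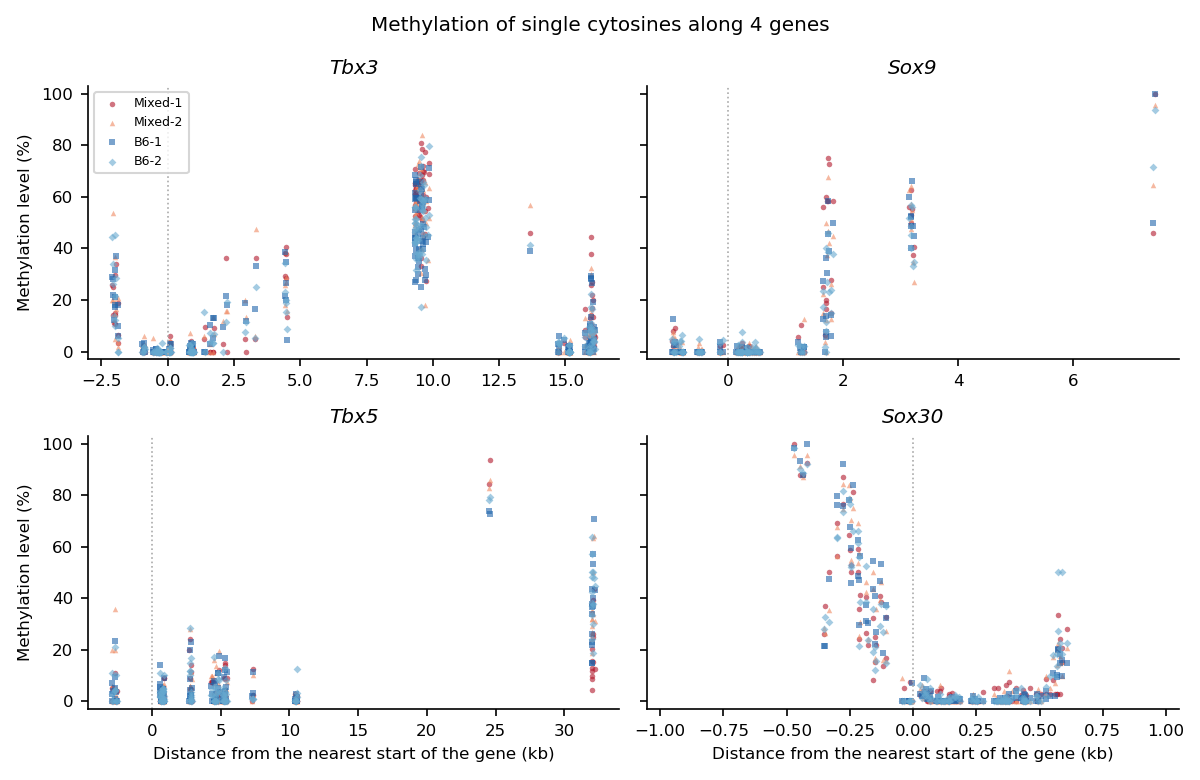
Methylation level (percent) of single cytosines in each mouse by distance (kb) from the nearest start, for Tbx3, Sox9, Tbx5 and Sox30 (shown to 1 kb on each side, so without its 9 body cytosines). All 4 genes are near 0 around the start; Tbx3, Sox9 and Tbx5 carry intermediate stretches inside the gene, and Sox30 climbs from near 0 to over 90% within 500 bp upstream.

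The second comparison asked whether the Mixed and B6 livers differed at these genes. Over all 4229 cytosines the mean was 11.7% and 11.6% in the Mixed mice and 11.3% and 11.3% in the B6 mice, a difference of 0.356 points with a pooled SD of 0.0766 within strains. Using every cytosine of each mouse instead of the common ones, the difference was -0.659 points, so its direction depends on which cytosines are counted. A logistic model of methylated and unmethylated reads per cytosine, with its overdispersion moderated by limma and Benjamini-Hochberg adjustment over all 1276684 cytosines, called none of the 4229 member cytosines (adjusted p under 0.01 and at least 25 points), beside 0.00556% of all cytosines. At an unadjusted p under 0.05 there were 102 (2.41%), against 2.03% of all cytosines. With the reads of each strain added up, Fisher's exact test, which ignores the spread between mice, called 3 of the members, beside 0.12% of all cytosines. The first of these was the cytosine of Sox12 at chr2:152393406, in its flank, with 100% and 100% in the Mixed mice and 56.1% and 77.8% in the B6 mice, and an adjusted p of 0.224 in the moderated logistic model. The second was the Sox15 cytosine at -280 bp, chr11:69654757, with 69.4% and 61.9% against 36.5% and 30.6%. The third, in a Sox6 intron at chr7:115893960, had 0% in the second Mixed mouse and 81.6%, 83.6% and 81.8% in the others.

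By gene region, limma on the region means of 31477 regions with at least 5 cytosines called 0 of the 72 member regions at an adjusted p under 0.05, beside 0% of all regions. At an unadjusted p under 0.05 there were 12 (16.7%), against 6.41% of all regions. This order depended on the scale. In a limma fit to the logit (log odds) of the pooled reads of each region there were 6 (8.33%), against 11.3% of all. The 4 largest differences, Mixed minus B6, were 11.5 points at the Sox15 promoter, 10.95 at the Sox12 flank (SE 6.67), -6.61 in the Sox7 body and 6.42 in the Tbx3 body. For Sox15 the SE was 1.79 points and the limma adjusted p 0.639, the smallest of the members. In the Tbx3 body the SE was 2.16 points and the limma adjusted p 0.772, and in the Sox7 body 2.25 points and 0.772. In Sox15 the 2 strands of the same CpG went different ways, with 32.1 points at the cytosine at -280 bp and -3.47 points at its partner on the other strand.

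**Figure D5:**
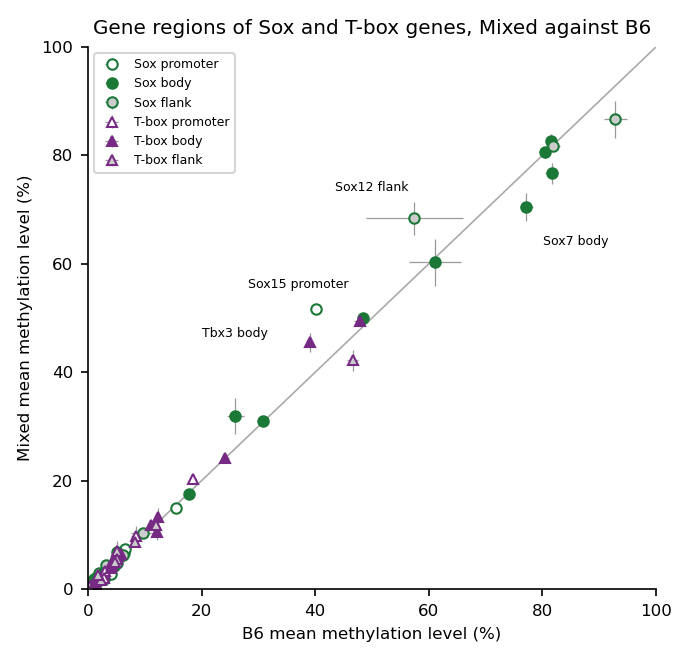
Mean methylation level (percent) of the 72 gene regions with at least 5 cytosines, B6 on the horizontal and Mixed on the vertical axis; points are means of 2 mice, whiskers reach to the single mice and the line marks equal levels. Most points lie near the line, with Sox15 promoter, Sox12 flank, Tbx3 body and Sox7 body the farthest from it.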

How the data were processed

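ERRBS libraries of 4 mouse livers were read for 50 cycles from 1 end and mapped by the authors to mm10. The paper's methods name BSMAP and the submitters' processing notes name Bismark and SAMtools, so the aligner is unsettled. The authors deposited for each mouse the count of reads (coverage) and the percent of reads with C or T at each cytosine on each strand, for cytosines with at least 10 reads. Mice had 1329761 to 1557387 cytosines with a median coverage of 39 to 55 reads, and 41 to 61 at the members; intervals were not computed, and PCR copies are not separate molecules, so the depth covers counting error only. Methylated reads were taken as coverage times percent, rounded, which gave whole reads for 99.998% of values or more within 0.05 reads of a whole number. All common cytosines lay on a CpG of the reference.

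Gene spans, starts and exons came from curated transcripts of the RefSeq annotation of GRCm38. Values are means over cytosines in each mouse (Python 3.11.15, pandas 2.3.3). Strains were compared per cytosine with a logistic model (R 4.3.3, limma 3.58.1 for moderating the overdispersion, whose prior of 1.80 on 16.3 degrees of freedom came from cytosines at 5 to 95% methylation), and per region with limma (trend). Both were tested on simulated data. The replicate numbers of the labels do not pair the mice: deviations of same-numbered mice correlated at -0.000207 over all cytosines and 0.0268 over members. Labels name separate mice; strain p-values rest on 2 mice each.

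The members and comparison lists were chosen with earlier results of these data known. Values in every mouse are given for members with a promoter mean over 20%, the 4 highest and 4 lowest body and flank means among those with at least 10 cytosines, the 4 regions with the largest strain difference, and Sox4, Sox9, Tbx3, Sox7, Sox17 and Sox18; others were named after their values were seen. RefSeq promoter sequences of 300 bp matched 22 of the 31 members by symbol. They held a median of 18 CpGs, against 7 over 32851 promoters. By family the median was 21.5 in 12 Sox genes and 9 in 10 T-box genes. The alternatives tried were the read minimum, merged strands, pooled reads, genes counted once, other promoter definitions, cytosines near other starts, the replicate block, Fisher's exact test, single mice left out and, added after seeing the data, single genes or the SoxD genes left out. For regions the logit of pooled reads was also tried.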

Additional observations from a re-analysis of the deposited data

How the results depend on the processing

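The T-box minus Sox difference in promoters (0.185 points) was 0.715 with at least 20 reads, 0.671 with reads pooled, 2.54 with each gene counted once, -0.0766 with all cytosines of each mouse, -0.703 with 2000 bp promoters, -1.81 with the 1000 bp upstream only, and 0.0510, 1.60 and 0.519 with the SoxD genes, Sox30 or Tbx3 left out. In bodies (-13.5) it was -11.6, -10.9, -10.6, -14.5, -21.0 and -4.51 under these 6 settings in the same order, -14.3 with strands merged, -15.5 without cytosines near another gene's start, and -12.7, -13.0 and -16.1 without Sox10, Sox30 or Tbx3. It turned to 2.37 without the SoxD genes. In flanks (-21.8) it was -23.5, -16.6, -39.2, -19.5 and -17.1 under the first 5 of these settings, -20.3 with strands merged, -14.2 without cytosines near another start, and -25.3 and -14.7 without the SoxD genes or Sox10. Body minus promoter (16.5) was 15.4, 14.2, 21.1, 18.1, 20.8 and 6.24 under the 6 settings, 17.8 with strands merged, 16.9 without cytosines near another start, and 9.12, 16.2, 17.1 and 15.5 without the SoxD genes, Sox10, Sox30 or Tbx3. Mixed minus B6 (0.356) was 0.619 with reads pooled, 0.573 with each gene counted once, 0.246 without Tbx3, and -0.659 with all cytosines of each mouse, where the B6 mice add more cytosines than the Mixed mice. For the other changes the cause was not tested.

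Leaving out each mouse moved these 5 values to 0.154 to 0.231, -13.7 to -13.4, -22.1 to -21.5, 16.4 to 16.6 and 0.283 to 0.429 points. The called member cytosines ranged from 0 to 1, the 1 being the Sox6 cytosine without Mixed-1, and the called regions stayed at 0. Pooled reads with Fisher's exact test gave 3 cytosines. Over all cytosines 71 were called, and 429 and 493 without Mixed-1 or Mixed-2, 1528 by Fisher's exact test and 0 without B6-1 or B6-2. The replicate block gave 0.356 points and called 0 member cytosines and 0 regions, and 0 of all cytosines in place of 71; at an unadjusted p under 0.05 it had 40 member cytosines (0.946%, against 0.900% of all) and 8 member regions (11.1%, against 6.02% of all). Of the alternative values of 37 named gene regions, 378 moved by less than 1 SD between mice and 57 by more, several of them under the other promoter definitions given with the results. Depth and design limit all of this: 2 mice a strain, at least 10 reads, and captured fragments only.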

Other observations

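On both strands 913 of the 3316 member CpGs were measured, with a median difference between strands of 0.785 points and 4 over 20 points. The Sox6 cytosine at chr7:115893960, covered by 38 and 43 reads in the Mixed mice and 55 and 44 in the B6 mice, is the one member called when Mixed-1 is left out, at -82.7 points. Cytosines present in a mouse but not in all 4 averaged 17.7% and 28.6% in the Mixed mice (294 and 108 cytosines) and 21.5% and 20.9% in the B6 mice (732 and 686 cytosines), against 11.5% for the common ones.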
